A study of Rattus norvegicus with 6 samples.

Results

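Lipid-associated macrophages are macrophages that collect around dying or lipid-laden cells in fat, in diseased arteries and in fatty or injured liver, and take up and break down their lipid. They are recognised in mouse and human tissue by a shared set of transcripts for lipid-sensing receptors, secreted enzymes and lipid carriers. The lipid receptor Trem2 signals through the adaptor Tyrobp and the kinase Syk, and in mouse it is needed for much of the programme. In the liver these cells are set apart from the resident macrophages, the Kupffer cells, which carry receptors such as Clec4f, Vsig4 and Timd4.

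The 10 genes described here are Trem2, Clec7a, Olr1, Cd44, Mmp12, Lgals3, Pla2g7, Fabp4, Gpnmb and Cd9, out of 15285 gene symbols on the array. They were chosen from the measured difference between the same 2 groups that is described below, together with their known place in this programme, so their own differences are given as a description, and counts of them past a threshold support nothing. All 10 were found, through 16 probes whose transcript accessions name them; 8 genes had 1 probe each, Olr1 had 2 and Cd44 had 6. Liver RNA came from 6 male Sprague-Dawley (Crl:CD(SD)) rats, bought at 5 weeks of age, and each animal was measured on 1 one-colour Agilent array. The treated group was 3 rats given bromodichloromethane, a trihalomethane formed when drinking water is chlorinated, at 200 mg/kg/day, and the other group was 3 rats given corn oil. The labels give the exposure once as 28 days and once as 9 weeks, so its length is not settled. The labels describe separate animals. The name stands for the genes: no macrophages were sorted or counted.

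Total RNA of whole liver was measured, so more cells of a type and more RNA per cell cannot be told apart in any value below. Signals are Agilent processed fluorescence units, background-subtracted and not scaled between arrays. Differences and overlaps were taken after log2 and subtraction of the 75th percentile of each array, which lay between 747 and 825 units in treated animals and between 670.1 and 758 units in corn oil animals. Between 65.3% and 66.9% of probes were well above background on treated arrays, against 61.3% to 63.9% on corn oil arrays, and 0 were saturated. Treated replicate 1 shared slide 1 with the 3 corn oil animals, and treated replicates 2 and 3 were on slide 2, so differences of the 10 genes are also given within slide 1, where 1 treated animal stands against 3. Hepatocyte markers such as Apoa2 and Cps1 were well above background on every array, as were the pan-macrophage genes Cd68, Csf1r and Adgre1. Signals of different genes are set against each other only in the summed levels of lists, where brighter probes weigh more.

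Promoters were looked up because 9 of the 10 genes were higher in every treated animal. The RefSeq promoter table of the rat build GRCr8 held 8 of the 10 genes, all but Lgals3 and Fabp4, as windows from 250 bases before to 50 bases after the annotated start. The AP-1 letters TGANTCA, searched on both strands, were found in 5 of these 8 windows, against 7.33% of the 27457 windows in the table. The stretches that hold them are printed for these 5 genes from 130 bases before to 20 bases after the start, read 5′ to 3′ on the strand of the gene, with the AP-1 match in capitals. They lie at chr9:20151760-20151909 (minus strand) for Trem2, chr4:164634528-164634677 (minus) for Olr1, chr8:12866522-12866671 (plus) for Mmp12, chr9:24901728-24901877 (minus) for Pla2g7 and chr4:79340998-79341147 (plus) for Gpnmb.
Trem2: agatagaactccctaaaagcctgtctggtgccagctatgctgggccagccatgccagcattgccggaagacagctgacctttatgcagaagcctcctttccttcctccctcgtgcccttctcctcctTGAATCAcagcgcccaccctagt
Olr1: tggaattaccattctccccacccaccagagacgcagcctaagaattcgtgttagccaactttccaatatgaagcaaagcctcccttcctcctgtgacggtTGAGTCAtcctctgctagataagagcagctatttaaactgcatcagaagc
Mmp12: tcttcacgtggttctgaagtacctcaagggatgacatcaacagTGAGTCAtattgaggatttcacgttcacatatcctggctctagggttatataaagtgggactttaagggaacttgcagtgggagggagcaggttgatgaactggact
Pla2g7: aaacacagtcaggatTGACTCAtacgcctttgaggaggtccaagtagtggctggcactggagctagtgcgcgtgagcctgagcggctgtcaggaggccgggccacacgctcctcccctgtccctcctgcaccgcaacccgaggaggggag
Gpnmb: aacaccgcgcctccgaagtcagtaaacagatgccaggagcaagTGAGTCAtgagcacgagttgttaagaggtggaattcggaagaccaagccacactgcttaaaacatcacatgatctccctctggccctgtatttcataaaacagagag
The match begins 3 bases before the start in Trem2, 30 before it in Olr1, 87 before it in both Mmp12 and Gpnmb, and 115 before it in Pla2g7. The central base is G in Olr1, Mmp12 and Gpnmb, A in Trem2 and C in Pla2g7. A core of PU.1, the myeloid factor encoded by Spi1, was searched as GAGGAA and found in 4 of the 8 windows, those of Trem2, Gpnmb, Olr1 and Cd9, against 27.5% of all windows. The E-box CACGTG was found in Mmp12 alone (6.65% of all windows), and the M-box TCATGTG, a site of the MiT/TFE factors of lysosome genes, in Gpnmb alone (3.46%). No 2 matches overlapped in these windows, and the windows of Clec7a and Cd44 held none of the 4 motifs. A match describes letters in the window and is not shown to be a site of binding.

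**Figure D1:**
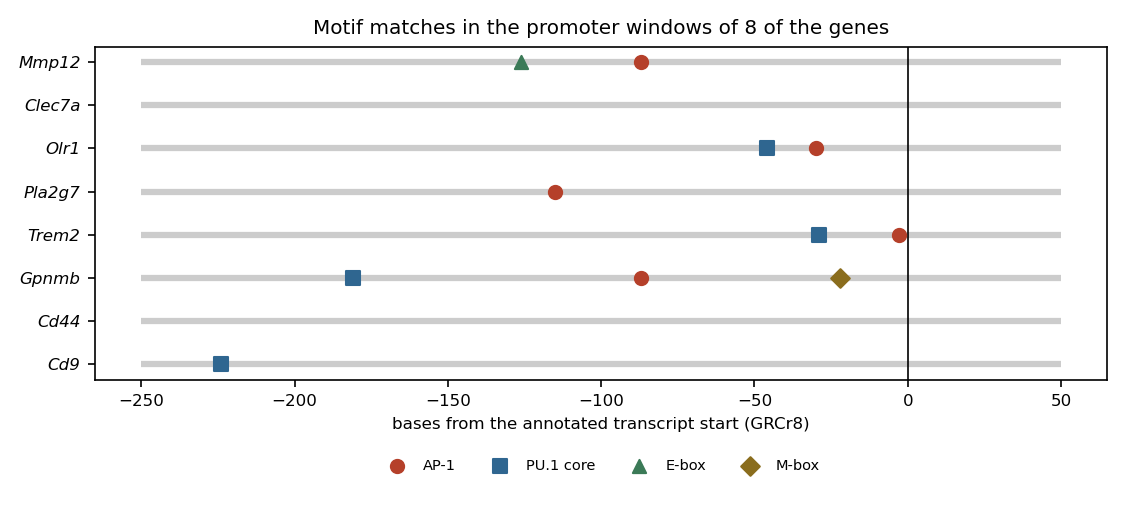
Positions of motif matches in the promoter windows of 8 genes; the x axis is the distance in bases from the annotated transcript start in GRCr8 (0, vertical line), and each grey bar is 1 window. AP-1 matches (circles) lie in 5 windows and PU.1 core matches (squares) in 4, while Clec7a and Cd44 have bare bars.

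Of the 10 genes, 9 were higher in every treated animal than in any corn oil animal, and Cd9 was not. The same 9 were past an adjusted p of 0.05 and were at least 2-fold higher, with limma fitted across all 28995 features. These counts follow from how the genes were chosen and nothing is read from them: over all features, 5.96% were past that threshold and higher, 18.3% were higher without overlap between the groups, and 2.17% were at least 2-fold higher. The median log2 difference of the 10 genes was 2.04, or 1.88 with Clec7a at its bound, against 0.00135 over all features. Mmp12 and Clec7a passed the filter on dim probes through the treated animals alone; the other 8 were well above background on all 6 arrays. Treated against corn oil, 9.36% of all features were past the threshold, and 63.6% of these were higher; that share was 74.2% when arrays were centred on their median and 97.1% when they were scaled on spiked-in control transcripts. Spike-in scaling moved the median of all features up to 0.459, and it moved the median of the 10 genes to 2.50.

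**Figure D2:**
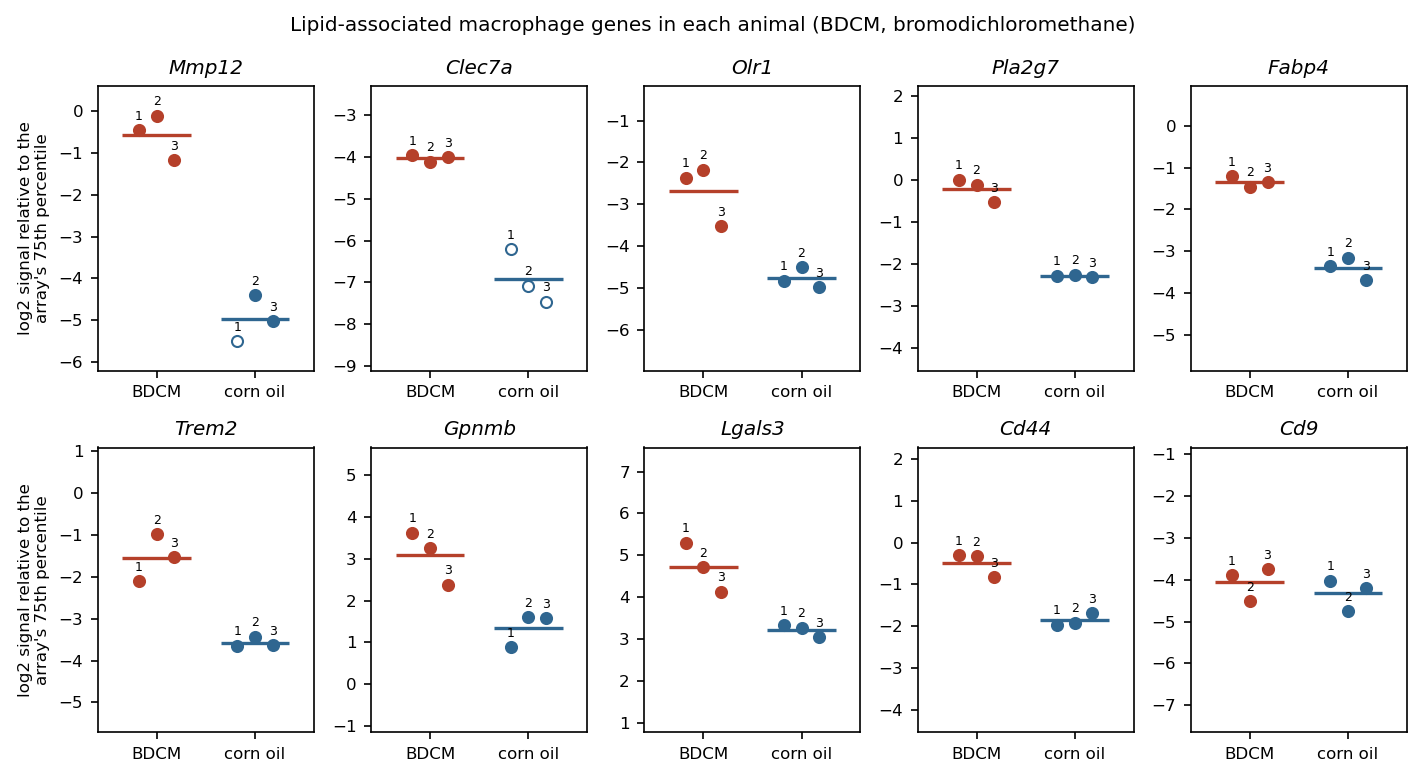
Each panel is 1 gene; the y axis is the log2 signal relative to the 75th percentile of the array, each point is 1 animal numbered by replicate (3 bromodichloromethane, BDCM, left; 3 corn oil, right), horizontal lines are group means, and all panels span the same number of log2 units. Open points are signals not well above background (Clec7a in all 3 corn oil animals, Mmp12 in corn oil replicate 1); the groups are apart in every panel except that of Cd9.

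Among the receptors, Trem2, which binds lipids and lipoproteins on the macrophage surface, gave 191, 416 and 258 units in treated replicates 1, 2 and 3, against 53.5, 67.7 and 60.9 units in corn oil replicates 1, 2 and 3. The corn oil animals lay close together (SD of 0.12 on the log2 scale) and the treated animals did not (0.56), with treated replicate 2 highest. The log2 difference was 2.03 (SE 0.28, n = 3 in each group), a 4.08-fold higher level, and the lowest treated animal stood 2.50-fold above the highest corn oil animal. Within slide 1, which holds only the lowest treated animal for this gene, the difference was 1.46.

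Clec7a encodes dectin-1, the beta-glucan receptor of myeloid cells. Its treated signals were 52.9, 47.2 and 46.3 units, against 9.06, 5.38 and 4.30 units in corn oil livers. All 3 corn oil signals were too near background to be called well above it, so only a bound can be given. Clec7a was at least 2.16-fold higher in treated livers when each corn oil array was set at its own lowest signal well above background, and the log2 difference was 0.91 over a common floor for all 6 arrays, added after the data were seen. The fitted log2 difference within slide 1 was 2.96, which is not a bound. The 3 treated animals differed less from each other than for any of the other 9 genes (SD of 0.08 on the log2 scale).

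Olr1, the lectin-like receptor for oxidised low-density lipoprotein known as LOX-1, gave 160.3, 182 and 65.3 units in treated livers, against 23.7, 32.2 and 24.02 units in corn oil livers. Treated replicate 3 lay well below the other treated animals, which gave Olr1 the widest treated spread of the 10 genes (SD of 0.73). The log2 difference was 2.08 (SE 0.36, n = 3 in each group), and 2.40 within slide 1. A second Olr1 probe was well above background in treated replicate 2 alone, with 17.1, 28.5 and 8.30 units in treated livers and 4.43, 4.15 and 6.42 units in corn oil livers. The treated signals of this probe were all above its corn oil signals, but the other 5 were not well above background, so no difference is given.

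Cd44, the receptor for hyaluronan and for osteopontin, gave 671, 656 and 422 units in treated livers, against 171.5, 193 and 235.5 units in corn oil livers. The groups did not overlap, and the lowest treated animal stood 1.82-fold above the highest corn oil animal. Cd44 was higher by 1.37 on the log2 scale (SE 0.17, n = 3 in each group), and by 1.56 within slide 1. Its 6 probes did not agree: a second probe gave a log2 difference of 1.32, another probe 0.10 with 49.2, 52.3 and 42.7 units in treated livers and 49.6, 37.9 and 34.5 units in corn oil livers, and the other 3 never rose well above background. Which Cd44 transcripts each probe reads was not tested. The mean over the probes that passed the filter was 0.93.

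Of the secreted proteins, Mmp12, the macrophage elastase that cleaves elastin and other matrix proteins, stood furthest apart. Its signals were 600.5, 758 and 329 units in treated livers, against 14.8, 34.55 and 23.3 units in corn oil livers. Every treated animal was at least 9.29-fold above the highest corn oil animal after scaling. The log2 difference was 4.39 (SE 0.37, n = 3 in each group), and 4.51 within slide 1. Corn oil replicate 1 was not well above background, so 2 of the 3 corn oil animals measured this gene.

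Lgals3 encodes galectin-3, a lectin that macrophages release in large amounts and that marks damaged lysosomes. It gave 32528, 21674 and 13121 units in treated livers, against 6766, 7069 and 6273 units in corn oil livers. Treated replicate 1 was highest and replicate 3 lowest, while the corn oil animals were nearly level (SD of 0.15 on the log2 scale, against 0.58 in treated animals). Lgals3 was thus higher by 1.50 on the log2 scale (SE 0.29, n = 3 in each group), and by 2.08 within slide 1.

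Pla2g7, the secreted phospholipase that hydrolyses platelet-activating factor and oxidised phospholipids on lipoproteins, gave 829, 760.1 and 518 units in treated livers, against 138, 152 and 152.5 units in corn oil livers. Its corn oil animals were the most alike of the 10 genes (SD of 0.03). The log2 difference was 2.07 (SE 0.15, n = 3 in each group), a 4.20-fold higher level, and 2.29 within slide 1.

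Fabp4, a carrier of fatty acids in the cytosol of macrophages, adipocytes and some endothelial cells, gave 356.5, 299 and 292 units in treated livers, against 65.5, 81.9 and 58.6 units in corn oil livers. The treated animals were close together (SD of 0.12) and all lay at least 3.24-fold above the highest corn oil animal. Fabp4 was higher by 2.06 on the log2 scale (SE 0.16, n = 3 in each group), and by 2.19 within slide 1. Because adipocytes also make Fabp4, their markers were read beside it: Adipoq and Lep never rose well above background, and 0 of the 7 measured adipocyte markers were past the threshold in limma (2 at an unadjusted p under 0.05), with a median log2 difference of -0.08. The lipid-droplet gene Cidea of that list had a log2 difference of 1.68 (adjusted p = 0.055) and Retn, measured in 1 of 3 corn oil animals, of 0.92 (adjusted p = 0.15), and the summed level of the list was 37.6 to 45.6 times the 75th percentile in treated livers and 22.4 to 29.3 times in corn oil livers. The part of adipocytes in the Fabp4 difference was not tested.

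The membrane proteins split. Gpnmb, a glycoprotein of lysosomes and of the macrophage surface, gave 10117, 7802 and 3886 units in treated livers, against 1239.9, 2209.7 and 2260.1 units in corn oil livers. The groups were apart, but the lowest treated animal stood only 1.72-fold above the highest corn oil animal, the narrowest gap of the 9 genes. For Gpnmb the log2 difference was 1.73 (SE 0.36, n = 3 in each group), and 2.26 within slide 1.

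Cd9, a tetraspanin used as a surface marker of these cells in mouse fat, gave 55.7, 35.9 and 55.7 units in treated livers, against 41.2, 27.1 and 41.0 units in corn oil livers. The groups overlapped: treated replicate 2 was below corn oil replicates 1 and 3. The log2 difference was 0.28 (SE 0.27, n = 3 in each group), smaller than the spread within either group (SD of 0.41 in treated and 0.38 in corn oil animals), and it was 0.44 within slide 1.

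The order of the differences, from Mmp12 at 4.39 down to Cd44 at 1.37 and Cd9 at 0.28, places side by side several genes that differ by less than their errors. Olr1, Pla2g7, Fabp4 and Trem2 lay between 2.03 and 2.08 on the log2 scale, less than 1 standard error apart. Gpnmb at 1.73, Lgals3 at 1.50 and Cd44 at 1.37 also lay within 1 standard error of the next. When each animal was left out in turn, the difference of Mmp12 stayed between 4.12 and 4.69, that of Pla2g7 between 1.96 and 2.23 and that of Fabp4 between 1.91 and 2.18. It ranged from 1.75 to 2.31 for Trem2, from 1.83 to 2.50 for Olr1, from 1.46 to 2.08 for Gpnmb and from 1.21 to 1.79 for Lgals3. The rise of the dimmer probes was smaller under the normexp setting, which replaces the background correction, adds an offset of 50 and starts from median spot signals; which of these moved the values was not tested. Under it the log2 difference was 2.59 for Mmp12, 1.21 for Trem2, 1.09 for Olr1, 1.29 for Fabp4 and 0.71 for Clec7a.

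**Figure D3:**
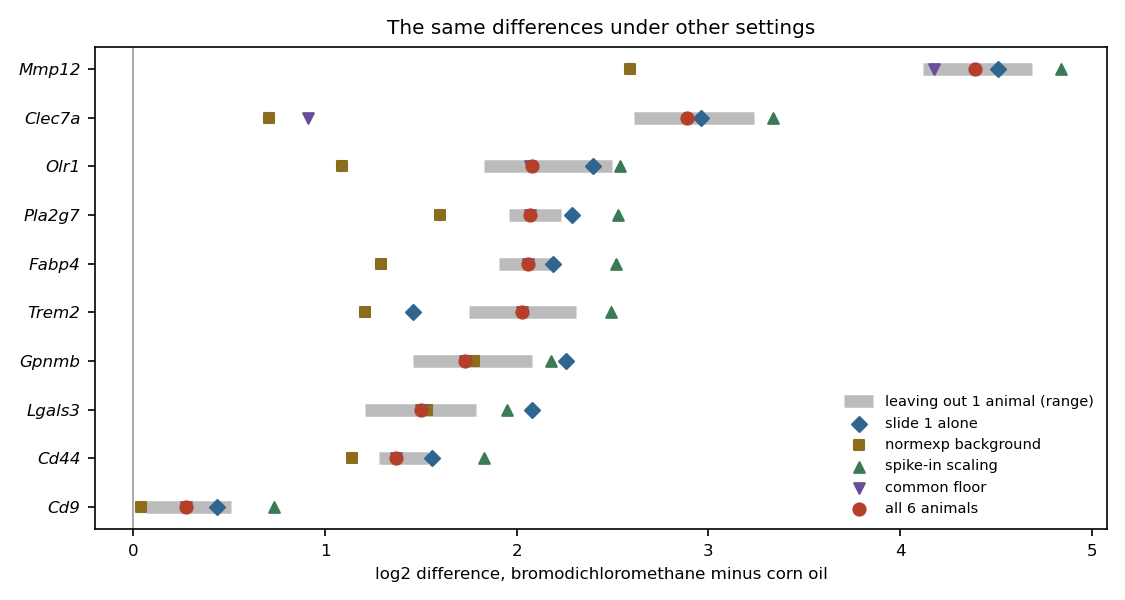
The x axis is the log2 difference, bromodichloromethane minus corn oil, and each row is 1 gene; circles use all 6 animals and other symbols or the grey range use another setting. Every value lies above 0, and the squares of normexp correction sit furthest left for the dim probes, such as Mmp12 at 2.59 and Clec7a at 0.71; the Clec7a circle is a fitted value on dim corn oil signals and not a bound.

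The animals of the treated group did not carry the 10 genes equally. Over the 8 genes well above background on all 6 arrays, the mean centred log2 level was 1.02, 0.93 and 0.51 in treated replicates 1, 2 and 3, against -0.85, -0.76 and -0.85 in corn oil replicates 1, 2 and 3. Treated replicate 3 was the lowest treated animal for 6 of the 10 genes (Gpnmb, Mmp12, Lgals3, Cd44, Olr1 and Pla2g7), against 31.0% of all features. Trem2 was lowest in treated replicate 1, and Clec7a, Fabp4 and Cd9 in treated replicate 2. Over the 6 arrays, Pearson correlations of single genes with that mean profile ran from 0.93 for Trem2 to 0.999 for Pla2g7 among the 9 genes that were apart, and the correlation was 0.30 for Cd9. The arrays fall into 2 groups, so these correlations include the group difference, and 8 of the genes are in the mean.

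The genes most like the mean profile, among 10834 genes well above background on all 6 arrays, were Emp3, Slc1a5, Sh3bgrl3, Or4x11, Clic1, Mcm2, Impdh1 and Hibch, with Pearson correlations of 0.995 to 0.999 over the 6 arrays. Their log2 differences ran from 0.29 to 1.24. Emp3, a small membrane protein, gave 2653, 2654 and 1993 units in treated livers, against 1146.5, 1289 and 1286 units in corn oil livers, a log2 difference of 0.81. Impdh1, an enzyme of guanine nucleotide synthesis, had the largest difference of the 8, with 2833, 2619 and 1761 units in treated livers and 863, 922 and 909 units in corn oil livers, a log2 difference of 1.24 (SE 0.15). Hibch, an enzyme of valine breakdown, had the smallest.

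Other genes of the programme were read beside the 10, with their differences all given on the log2 scale, treated minus corn oil. Of 32 further lipid-associated macrophage genes, 31 were measured. Of these, 1 was past the threshold and higher and 0 were lower (limma, adjusted over all features), against 5.96% and 3.41% of all features. The median log2 difference of the 31 was 0.17. In the same fit 12 had an unadjusted p under 0.05 in either direction. Without overlap between the groups, 10 of the 31 were higher, against 18.3% of all features. Differences were above 0 for 22 and below 0 for 9. Capg came nearest to the threshold without passing it (0.65, adjusted p = 0.052). Ctsz, a lysosomal cathepsin, rose by 0.51 (SE 0.11, adjusted p = 0.039), to 2785, 2606 and 2079 units in treated livers, against 1389.9, 1559.7 and 1762 units in corn oil livers. Spp1, which encodes the Cd44 ligand osteopontin and is among the most used markers of these cells, gave 171, 549.5 and 254 units in treated livers, against 170.1, 166 and 387.5 units in corn oil livers. Its groups overlapped, with a log2 difference of 0.22 (adjusted p = 0.81). The count of these further genes past the threshold changed with the setting (limma, either direction). It was 15 with spike-in scaling, 5 with normexp correction, 4 with trend and robust eBayes, 3 with median scaling and 0 with no filter on dim probes.

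Of the lipid-handling genes on that list, the scavenger receptor Cd36 had a log2 difference of 0.94 (adjusted p = 0.11), Fabp5 of 0.87 (0.14), the lipase Lpl of 0.52 (0.16), the lipid-droplet coat Plin2 of 0.34 (0.15) and the lysosomal lipase Lipa of 0.30 (0.28). None of these 5 was past the threshold. The cholesterol exporter Abcg1 had a difference of 0.48 (adjusted p = 0.057). Other lipid-handling genes of the list lay below 0: Abca1 at -0.13 (0.80), Nceh1 at -0.23 (0.39) and Npc2 at -0.19 (0.27). Apoe, the lipoprotein ligand of Trem2 that hepatocytes also make, had a difference of -0.20 (adjusted p = 0.19). The tetraspanin Cd63 followed the order of Lgals3 and Gpnmb in treated animals, with 12209.9, 8800.5 and 5318 units, against 5409.6, 5348 and 5749.5 units in corn oil livers, but its groups overlapped (log2 difference 0.44, adjusted p = 0.32).

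Tyrobp and Fcer1g rose among the signalling partners of Trem2 and dectin-1. Of 16 listed genes 15 were measured, 2 were past the threshold and higher, 0 were lower and the median was 0.30. Tyrobp, the adaptor that carries the Trem2 signal, rose by 0.55 (SE 0.09, adjusted p = 0.024), with 28867, 26980.4 and 23211 units in treated livers and 15906, 16620.2 and 15976 units in corn oil livers. Fcer1g, the related adaptor, rose by 0.48 (adjusted p = 0.044). The kinases Src (0.73, adjusted p = 0.067) and Syk (0.43, adjusted p = 0.096) and the dectin-1 adaptor Card9 (0.20, adjusted p = 0.30) were not past the threshold, and 14 of the 15 differences were above 0.

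Some general macrophage genes rose, and no Kupffer cell marker passed the test under the scaling used here. Of 18 pan-macrophage genes, all measured, 4 were past the threshold and higher and 0 were lower, with a median of 0.28: Itgb2, the common chain of the leukocyte integrins, rose by 0.55 (adjusted p = 0.021) and Spi1 by 0.47 (adjusted p = 0.043), besides Tyrobp and Fcer1g. Cd68 had a difference of 0.31 (adjusted p = 0.16), Csf1r of -0.15 (0.31) and Adgre1 of -0.12 (0.73). Of the 14 Kupffer cell markers measured, 0 were past the threshold in limma (2 at an unadjusted p under 0.05), and their median was 0.15. With spike-in scaling 7 of these and 14 of the pan-macrophage genes were past it (limma, either direction), against 10646 of all 28995 features. Both counts thus depend on the scaling. The Kupffer cell count was 2 with trend and robust eBayes, and 1 with normexp correction, quantile or median scaling, or the common floor. Clec4f gave a difference of -0.24, Vsig4 of -0.01 and Marco of 0.17, and the smallest adjusted p values were 0.059 for Folr2 (0.38) and 0.077 for Nr1h3 (-0.34, or 0.12 with spike-in scaling). The summed level of the pan-macrophage list was 180.5 to 184 times the 75th percentile in treated livers and 142 to 159 times in corn oil livers, whereas that of the Kupffer cell list was 255 to 300.0 times in treated livers and 262 to 314 times in corn oil livers. Whether more macrophages account for the rise of the 10 genes was not tested.

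Some markers of other immune cells rose beside the 10 genes. All 11 measured monocyte and neutrophil markers had a difference above 0, with a median of 0.54; 1 was past the threshold, the calcium-binding protein S100a4 (0.86, adjusted p = 0.024), and Elane had no signal well above background. Their summed level was 15.6 to 24.0 times the 75th percentile in treated livers and 11.8 to 13.5 times in corn oil livers, of which 56.4% to 66.5% was Plac8. Of 7 dendritic cell markers 1 rose, the MHC class II chaperone Cd74 (0.88, adjusted p = 0.022), and the median was 0.28. The 3 with a difference below 0 were Zbtb46 at -0.54 (adjusted p = 0.11, groups without overlap), Ccr7 at -0.19 (0.60) and Clec9a at -0.03 (0.87). The summed level of that list was 23.2 to 32.2 times in treated livers and 14.4 to 16.5 times in corn oil livers, and Cd74 made up 93.0% to 95.6% of it. Of 14 T, NK and B cell markers 3 rose: Cd8b by 0.86 (adjusted p = 0.021), and Cd3e and Cd2 by at least 1.33-fold and 1.47-fold over corn oil livers where both were not well above background (adjusted p = 0.026 and 0.038). These bounds take each array's own lowest signal well above background; over the common floor the log2 difference was 0.23 for Cd3e (adjusted p = 0.30) and 0.36 for Cd2 (0.29), and with normexp correction it was 0.10 (0.50) and 0.23 (0.13), so neither was past the threshold under either setting. The summed level of those 14 was 4.46 to 5.21 times in treated livers and 3.57 to 4.38 times in corn oil livers. The part of these cells in the 10 genes was not tested.

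Some markers of mast cells, hepatocytes and endothelial cells fell; over all features 3.41% were past the threshold and lower. Of 6 measured mast cell markers 3 fell and 0 rose: the tryptase Tpsab1 fell by 1.03 (SE 0.10, adjusted p = 0.008), with 1887.5, 1537 and 1637 units in treated livers and 2909, 3166.5 and 3229 units in corn oil livers. Cpa3 fell by 1.29 (adjusted p = 0.017; -0.67 with normexp correction), and Fcer1a, not well above background in treated livers, was at least 2.17-fold lower there by the same kind of bound (adjusted p = 0.024). Over the common floor the log2 difference of Fcer1a was -0.33 (adjusted p = 0.30), and with normexp correction it was -0.41 (0.062). The summed level of the mast cell list was 3.86 to 9.52 times the 75th percentile in treated livers and 7.57 to 14.0 times in corn oil livers, of which 57.4% to 77.0% was Hdc, which was not past the threshold (-0.60, adjusted p = 0.66). Of 16 hepatocyte markers 3 fell, Cps1 by 0.62, Apoa2 by 0.57 and Serpina1 by 0.50 (adjusted p = 0.027, 0.036 and 0.023), and the summed level was 5293 to 5874 times in treated livers and 6303 to 7203 times in corn oil livers. Of 11 endothelial markers 1 fell, Lyve1 by 0.56 (adjusted p = 0.030), and their summed level was 46.0 to 52.4 times in treated livers and 55.1 to 61.5 times in corn oil livers. These hepatocyte and endothelial falls, from 0.50 to 0.62, are near 0.459, the median of all features with spike-in scaling. The size of these falls thus depends on the scaling. With spike-in scaling 2 of the 16 hepatocyte markers and 1 of the 11 endothelial markers were past the threshold (limma, either direction). Of 12 stellate cell and myofibroblast markers 0 were past the threshold in limma (2 at an unadjusted p under 0.05; median -0.02), with Timp1 at 0.47 (adjusted p = 0.13) and Reln at -0.33 (0.17), or 0.13 with spike-in scaling. Of 10 cholangiocyte markers 1 rose, Epcam by 1.12 (adjusted p = 0.021), with Krt19 at 0.16.

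**Figure D4:**
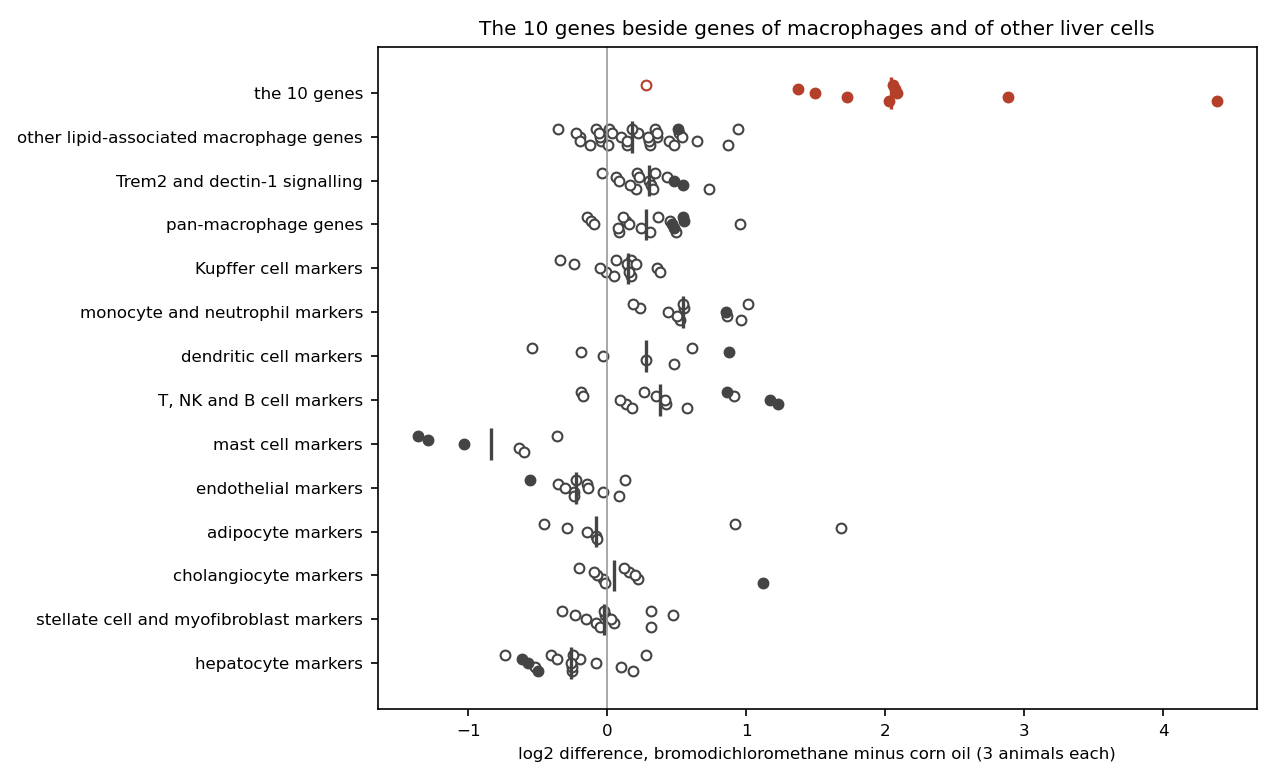
Each point is 1 gene and the x axis is its log2 difference, bromodichloromethane minus corn oil (3 animals each); filled points are past an adjusted p of 0.05 in limma over all features, open points are not, and vertical ticks are list medians. The 10 genes lie around a median of 2.04 and the further lipid-associated macrophage genes around 0.17; Clec7a is drawn at its fitted value of 2.89, which is not a bound.

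Relatives of the 10 genes in the same protein families were also read. Over all features 5.96% were past the threshold and higher, and 3.41% were past it and lower. Of 14 measured matrix metalloproteinases and their inhibitors other than Mmp12, 0 were higher and 1 was lower, Mmp17 (-0.59, adjusted p = 0.025). Mmp7 was not well above background in corn oil livers and was not past the threshold (adjusted p = 0.11). With each corn oil array set at its own lowest signal well above background, Mmp7 was 1.34-fold higher in treated livers. Its treated mean of -4.72 on the log2 scale lay close to the common floor of -4.945. Mmp3, Mmp8, Mmp9, Mmp10, Mmp11, Mmp13 and Mmp20 did not rise well above background on a single array. Of 8 galectins other than Lgals3 0 were past the threshold in limma, with 0 also at an unadjusted p under 0.05, and the highest difference was 0.21, that of Lgals2. Fatty acid binding proteins beside Fabp4 moved both ways: Fabp2, the intestinal form, rose by 2.26 (SE 0.21, adjusted p = 0.0072), with 5893, 4435 and 6922 units in treated livers and 976, 951 and 1283.5 units in corn oil livers. Fabp7, the brain form, fell by 1.43 (adjusted p = 0.050), and Fabp1, the liver form, had a difference of -0.09. Treated replicate 3 was the highest treated animal for Fabp2, unlike for Mmp12, Lgals3 or Gpnmb.

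Among 17 C-type lectin receptors other than Clec7a and Olr1, 2 rose: Clec12a, an inhibitory receptor of myeloid cells, by 0.84 (adjusted p = 0.018) and Cd209a by 0.69 (adjusted p = 0.018), which was 0.09 (adjusted p = 0.57) with normexp correction. Of 12 scavenger receptors 2 rose, Scara5 by 1.08 (adjusted p = 0.029) and Cxcl16, a receptor for oxidised lipoprotein in its membrane form, by 0.95 (adjusted p = 0.021), while Msr1 had a difference of 0.17. Of 14 phospholipases A2 and related hydrolases 1 rose, Pafah2, by at least 1.72-fold over corn oil livers where it was not well above background (adjusted p = 0.016), with a log2 difference of 0.59 over the common floor (0.022) and of 0.18 with normexp correction (0.26). Of 21 tetraspanins other than Cd9, 2 rose and 1 fell, with Tspan17, measured in 1 of 3 corn oil animals, at 1.94 (adjusted p = 0.025; 0.68 with normexp correction), Cd53 at 0.50 (0.036) and Tspan12 at -0.58 (0.046). Of 11 genes for Cd44 ligands and hyaluronan handling 1 rose, Ezr, which links CD44 to the cytoskeleton, by 0.76 (adjusted p = 0.036).

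The MiT/TFE factors and lysosome regulators, which drive Gpnmb in other settings, gave 1 higher and 1 lower gene of 14 measured, with a median of -0.05. The 2 were Spi1, named above, and the retinoid receptor Rxra, which fell by 0.51 (adjusted p = 0.032). Mitf had a log2 difference of -0.04, Tfeb of 0.26 and Tfec of 0.13.

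Over the 22 lists together, 268 of 337 distinct genes outside the 10 were measured. Of these, 20 (7.46%) were past the threshold and higher, against 5.96% of all features, and 11 were lower, against 3.41%. The median log2 difference was 0.0856. Of these 268, 3 had a difference above that of Cd44, which ranked 314 among the rises of all 28995 features. Of the 31 past the threshold, Fabp2 and Tpsab1 were past it in all 6 fits that left out 1 animal and 12 in none of them, among these Tyrobp, Fcer1g, Spi1 and Ctsz. With spike-in scaling 24 of the 31 were past it. Within slide 1 all 31 had the same sign, with a larger size in 19; the difference there was 0.64 for Tyrobp, 0.38 for Fcer1g, 0.50 for Itgb2, 0.57 for Spi1, 0.63 for Ctsz, 2.27 for Fabp2 and -0.92 for Tpsab1. With slide as a fixed block 1 of the 31 was past it, and in slide 1 alone 0 (limma; 53 of the 268 at an unadjusted p under 0.05), though none of the 31 changed direction under any setting that was run.

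Neighbouring genes on the chromosomes were read beside the 10, taking 4 annotated genes on each side in GRCr8. Of 72 named neighbours 43 were measured. Past the threshold, 1 was higher and 3 were lower, against 5.96% and 3.41% of all features. The median log2 difference of the neighbours was 0.0256. Clec7a and Olr1 are next to each other on chromosome 4, and of the lectin genes beside them Clec1a had a log2 difference of -0.20, Clec9a of -0.03, Clec1b of -0.26 and Clec12b of 0.07, all 4 with an adjusted p of 0.41 or more, and Klre1 of 0.65 (adjusted p = 0.31). The 4 neighbours past the threshold, chosen for naming after their values were seen, were Trem3, another receptor of the Trem cluster (1.28, SE 0.21, adjusted p = 0.022; not well above background in corn oil replicate 1), and, lower, the glutamate transporter Slc1a2 next to Cd44 (-3.36, SE 0.68, adjusted p = 0.036), Scnn1a near Cd9 (-1.11, adjusted p = 0.016) and Cyp39a1 near Pla2g7 (-0.49, adjusted p = 0.040). Cd44 and Slc1a2 thus lie side by side and had differences of 1.37 and -3.36.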

How the data were processed

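Liver RNA of 6 rats was labelled with Cy3 and hybridised to Agilent arrays in 1 colour, per the labels' protocols. The authors quantified the scans with Agilent Feature Extraction 10.7, as the submitters' processing notes say. Per the file headers, the deposited intensity of a spot is linear and background-subtracted, and flags mark spots well above background or saturated. The authors also deposited a value table that from its numbers is a ratio, the processed signal over the 75th percentile of the array (within 1% of it for 96.4% to 100% of the probes of an array). Its column medians lie between 0.0954 and 0.102; it is on no log scale, is not centred by gene, and served as an alternative. Statistics used by the authors are not given in the sources used here.

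Of 62976 spots, 1319 are controls, and 27 probes with an outlier flag on at least 1 array were left out. The log2 processed intensity was scaled by subtracting its array's 75th percentile, taken without control spots. Accessions were matched to RefSeq genes of GRCr8 for names: of 61657 probes 27460 (44.5%) matched 1 symbol, 0 several and 34197 none. Probes well above background in all 3 animals of either group were kept, and the brightest stood for its gene, giving 28995 features. The groups were set against each other in limma 3.58.1 under R 4.3.3 (lmFit, eBayes, two-sided, Benjamini-Hochberg over all features, threshold 0.05), with a script tested on simulated data. A bound takes, in the group that is dim throughout, each array's lowest well-measured signal or the probe's own signal, whichever is higher. It depends on these floors of single arrays: over the common floor the differences of Clec7a, Fcer1a, Cd3e, Cd2 and Pafah2 were smaller than their bounds. Precision is limited by having 6 arrays.

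The 10 genes, the lists and the tests were chosen with earlier results of these data known. Genes were named by rule: all 10, up to 4 genes past the threshold of each list with the largest difference or else the 2 with the smallest p, and the 8 genes most correlated with the mean profile; other list genes are named as known members of a pathway and the 4 neighbours after their values were seen. Summed levels are sums of linear signal over the 75th percentile. Alternatives were normexp correction (offset 50, on median foreground and background signals, since mean signals are not used here), quantile, median and spike-in scaling, other filters and probe rules, trend and robust eBayes, the value table, the slide as a block, the replicate number as a block, each animal left out, and an added common floor.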

Additional observations from a re-analysis of the deposited data

How the results depend on the processing

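Past the threshold were 2715 features, against 10646 with spike-in scaling, 609 with no filter on dim probes, 350 with slide as a fixed block and 120 in slide 1 alone, where 1 treated animal is assumed to vary like the others. Leaving out 1 animal gave 335 (without treated replicate 2) to 1232 (without corn oil replicate 1). Of the 10 genes, 9 were past it with all animals, 4 with slide as a fixed block, 1 in slide 1 alone and 4 to 8 with 1 animal left out, lowest without corn oil replicate 2 (4) and treated replicate 2 (5); these counts describe genes chosen from this difference. Of the genes on the lists, 31 became 125 with spike-in scaling, 4 with no filter, 2 with slide as a fixed block, 0 in slide 1 alone (limma; 53 at an unadjusted p under 0.05) and 3 to 14 with 1 animal left out. Fewer animals were fitted in slide 1 alone and with an animal left out; the cause of the other changes was not tested. Nr1h3 and Reln changed sign with spike-in scaling, to 0.119 and 0.131. Of 198 values of the 10 genes under these settings 22 moved by more than the spread between replicates and 0 changed sign. Of 615 values of the 31 list genes 283 were no longer past the threshold and 0 changed sign.

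Replicate numbers are shared by the groups but the labels tie them to nothing. Deviations of same-numbered animals correlated at 0.0921, 0.0187 and 0.117 over all features, so the numbers were not taken to pair the animals, although each animal correlated best with its own number. With a replicate block 353 features, 5 of the 10 genes and 3 list genes were past the threshold. With 3 animals a group and 1 slide holding both groups, slide and treatment can be separated only through treated replicate 1. For signals near background, as those of Clec7a, Mmp12 and Olr1 in corn oil livers, the size of a fold was smaller under the normexp setting, whose correction, offset and signal column were not tested apart.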
